A study of Mus musculus with 19 samples.

Results

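Myelin and oligodendrocyte genes are described here across sorted central nervous system cells of mice with experimental autoimmune encephalomyelitis (EAE), an immune attack on myelin that serves as a model of multiple sclerosis. The 9 genes, Mbp, Cnp, Mobp, Mog, Mag, Mal, Cldn11, Cryab and Ptgds, were taken from a list of oligodendrocyte and myelin genes by symbol, ignoring case, out of 6842 gene names in 3 tables. All 9 were in the astrocyte table, 3 (Mbp, Cryab and Ptgds) in the microglia table and 4 (the same 3 and Cnp) in the monocyte table, and each passed the filter on low values there. The groups compared were astrocytes with shXbp1 (4 libraries) and shScrmbl (4), microglia with shXbp1 (3) and shScrmbl (4), and monocytes with shXbp1 (2) and shScrmbl (2).

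All mice were wild-type female C57Bl/6 of age P85 with EAE, induced with 25 µg of the peptide MOG35-55 in complete Freund's adjuvant (CFA), so no group was free of disease. A lentivirus given intracranially carried GFP and either a hairpin against Xbp1 (pLenti-Gfap-GFP-shXbp1) or a scrambled one (pLenti-Gfap-GFP-shScramble). The Gfap promoter is active mainly in astrocytes, so in microglia and monocytes the comparison asks what differs in cells that the virus was not aimed at. The protein of Xbp1 switches on genes that help cells fold proteins in the endoplasmic reticulum. Cells came from the whole central nervous system of 1 mouse at a time, and which antibodies defined each sort is not given in the sources used here.

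Myelin is the stacked membrane that oligodendrocytes wrap around axons. Mbp (myelin basic protein) holds the cytoplasmic faces of that membrane together, and Mobp encodes a related small basic protein of compact myelin. Cnp is an enzyme of the non-compacted channels of the sheath, Mal a lipid-raft protein of myelin, Cldn11 the claudin of its tight junctions, and Mag and Mog are adhesion molecules of its innermost and outermost surfaces. Cryab, a small heat shock protein, is made by oligodendrocytes and by astrocytes. Ptgds, which makes prostaglandin D2, is made by oligodendrocytes and also by meningeal and choroid plexus cells. Mog encodes the protein from which the immunizing peptide was taken.

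Depth was low. Totals ran from 32842 to 302003 counts per astrocyte library, from 10039 to 122002 per microglia library and from 15654 to 112676 per monocyte library, and 1 count equalled a normalized signal of 4.22 to 27.6 (astrocytes), 9.33 to 76.0 (microglia) or 9.11 to 50.6 (monocytes). The signal of the targeted gene, Xbp1, lay between 31.2 and 79.7 in shXbp1 astrocytes, from 28 counts. In shScrmbl astrocytes it lay between 20.1 and 79.9, from 22 counts, so it did not separate the groups. Single libraries held as few as 1 count of Xbp1, too few to show whether the hairpin lowered it. Ttr, the transthyretin gene of choroid plexus cells, held 14.2% to 26.7% of the counts of an astrocyte library. Summed astrocyte markers (16 of 20 in the table; the highest, Clu, averaged 1447 and 1309 with shXbp1 and shScrmbl) held 27.1 to 43.1 per 10000 counts there, against 1706 to 3111 for 15 choroid plexus markers. Microglia markers (18 of 18; Ctss highest) held 25.2 to 86.3 and monocyte and macrophage markers (11 of 18; Lyz1 highest) 7.94 to 74.7, while ependymal (11 of 12; Ccdc153), neuron (6 of 16; Meg3), endothelial and mural (6 of 15; Bsg) and red cell markers (4 of 5; Hbb-bs) held at most 28.3, 10.5, 10.4 and 11.3. Microglia markers held 257 to 390 in microglia and 133 to 203 in monocyte libraries. In bulk libraries, more cells of a type and more RNA per cell cannot be told apart.

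Upstream sequence is shown for 2 pairs of interest, Mobp, which varied with Mbp across astrocyte libraries, and Cnp with Mal, which varied together, and for Ptgds, the member with the smallest p. Each is the 250 bases before the gene's start in RefSeq (GRCm38.p6), 5′ to 3′ on the gene's strand, with ACAAAG on either strand (CTTTGT on the other) in capitals, a form of the core that SOX factors such as Sox10 bind. Mobp lies at chr9:120149492-120149741 on the plus strand, Cnp at chr11:100574689-100574938 on the plus strand, Mal at chr2:127656696-127656945 on the minus strand and Ptgds at chr2:25469750-25469999 on the minus strand. The gene coordinates given below are from GENCODE. By them the Ptgds window lies inside its gene, and the Mobp and Cnp windows reach past the starts of theirs.
Mobp: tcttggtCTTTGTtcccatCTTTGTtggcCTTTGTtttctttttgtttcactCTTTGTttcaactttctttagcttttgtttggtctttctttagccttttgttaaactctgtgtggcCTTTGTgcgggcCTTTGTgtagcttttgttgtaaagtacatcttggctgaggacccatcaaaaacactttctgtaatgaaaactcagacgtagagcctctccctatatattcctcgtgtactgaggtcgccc
Cnp: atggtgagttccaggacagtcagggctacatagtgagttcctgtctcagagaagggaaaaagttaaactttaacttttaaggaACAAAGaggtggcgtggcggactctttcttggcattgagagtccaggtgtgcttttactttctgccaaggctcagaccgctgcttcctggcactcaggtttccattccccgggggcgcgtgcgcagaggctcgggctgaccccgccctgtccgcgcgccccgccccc
Mal: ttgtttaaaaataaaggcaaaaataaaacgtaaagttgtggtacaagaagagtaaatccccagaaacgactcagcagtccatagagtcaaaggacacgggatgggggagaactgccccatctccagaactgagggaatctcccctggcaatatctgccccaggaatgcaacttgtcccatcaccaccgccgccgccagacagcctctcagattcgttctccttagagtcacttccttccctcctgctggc
Ptgds: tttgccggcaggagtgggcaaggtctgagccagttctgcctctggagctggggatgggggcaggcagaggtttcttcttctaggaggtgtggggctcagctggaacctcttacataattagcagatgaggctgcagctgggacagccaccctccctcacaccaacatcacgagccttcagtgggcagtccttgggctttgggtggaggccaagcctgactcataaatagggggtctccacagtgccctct

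ACAAAG stood in 4 of the 9 windows used, which covered 7 members, and in 16.5% of all 32851 windows of that length. No window of Cryab was used, nor any member window on chromosome 18, where Mbp lies. By gene these were 3 of the 7 members (Cnp, Mag and Mobp). Mag had more than 1 window, and overlapping ones held the same match. Mobp held 6 copies, and 1 of the 32851 windows, its own, held as many. GACGTG, a form of the element that XBP1 binds, stood in 0 of the 7 members' windows and in 5.20% of all windows. These matches describe letters in the windows and were chosen after the members' values were seen.

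In astrocytes the members spanned a wide range of levels, and none differed between the viruses beyond the spread of the libraries. Ptgds averaged 2150 ± 765, Mbp 999 ± 739 and Cryab 653 ± 179 in normalized signal over the 8 libraries (SD), and the other 6 averaged between 54.3 (Cldn11) and 130 (Mobp). Ptgds exceeded Mbp in 7 of 8 libraries and Cryab exceeded Mobp in 8 of 8, whereas Mbp exceeded Cryab in 5 of 8, and from Mobp down to Cldn11 each neighbouring pair changed order between libraries. Counts came from transcript 3′ ends, so levels were not divided by length. By limma 0 of the 9 members passed an adjusted p of 0.05, with 0% of the 6366 genes tested called, and edgeR (0.0157% of genes called) and DESeq2 (0% called) also called 0 members. At an unadjusted p under 0.05 limma had 0 of 9 members, against 4.68% of all genes, and edgeR and DESeq2 also had 0 (6.57% and 2.06% of all genes).

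Of the structural genes of compact myelin, Mbp (chromosome 18, 82475146 to 82585637, plus strand, GRCm38) had a signal of 2592, 664, 229 and 797 in shXbp1 astrocytes, against 1103, 590, 586 and 1434 in shScrmbl astrocytes. The highest and the lowest of the 8 libraries were both shXbp1, and the groups overlapped. The limma log2 difference, shXbp1 minus shScrmbl on log2(signal + 1), was -0.20 ± 0.71 (SE), while edgeR and DESeq2 put it at 0.19 and 0.12. Mobp (chromosome 9, 120149707 to 120181484) had 290, 81.8, 52.0 and 99.6 with shXbp1, against 100.3, 118, 79.9 and 221 with shScrmbl. Its order of libraries ran close to that of Mbp, with shXbp1 replicate 1 highest and replicate 3 lowest for both, and its log2 difference was -0.19 ± 0.51.

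Among the genes of the sheath's channels, rafts and junctions, Cnp (chromosome 11, 100574904 to 100591729) had 153, 67.4, 104 and 79.7 in shXbp1 astrocytes, against 100.3, 80.1, 53.3 and 193 in shScrmbl astrocytes. Mal (chromosome 2, 127633226 to 127656695) had 171, 67.4, 135 and 93.0 with shXbp1, against 160, 75.9, 26.6 and 248 with shScrmbl. For both genes the shScrmbl libraries reached above and below every shXbp1 library. Their limma log2 differences were 0.01 ± 0.48 and 0.20 ± 0.57, and edgeR gave -0.08 and -0.10. Cldn11 (chromosome 3, 31149920 to 31164324) had 68.2, 33.7, 72.9 and 19.9 with shXbp1, against 0, 21.1, 53.3 and 165 with shScrmbl, from 21 and 13 counts. The floor of the library with 0 counts was a signal of 60.2 (3 counts), above 4 of the other 7 values, and the log2 difference was 1.05 ± 1.32 by limma, 0.01 by edgeR and -0.23 by DESeq2.

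The surface molecules Mog and Mag had, with Ptgds, the 3 lowest log2 differences, without separating the groups. Mog (chromosome 17, 37010743 to 37023398) had 85.3, 67.4, 31.2 and 46.5 in shXbp1 astrocytes, against 60.2, 122, 53.3 and 138 in shScrmbl astrocytes, with a limma log2 difference of -0.66 ± 0.52 (adjusted p = 0.824) and edgeR at -0.81. Mag (chromosome 7, 30899176 to 30914873) had 153, 43.3, 83.3 and 33.2 with shXbp1, against 40.1, 67.5, 213 and 138 with shScrmbl, and -0.52 ± 0.58. Mog and Mag rested on 29 and 31 counts with shXbp1, against 39 and 31 with shScrmbl.

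Cryab, the chaperone, was the steadiest member and Ptgds the one nearest to a difference. Cryab (chromosome 9, 50751325 to 50756636) had 563, 818, 385 and 764 in shXbp1 astrocytes, against 522, 843, 506 and 827 in shScrmbl astrocytes, a log2 difference of -0.11 with a 95% interval from -0.76 to 0.54. Ptgds (chromosome 2, 25466709 to 25470046) had 1364, 2777, 1030 and 1965 with shXbp1, against 1805, 2130, 2982 and 3144 with shScrmbl. The 2 lowest libraries were shXbp1 and the 2 highest shScrmbl, with overlap between them. Its log2 difference was -0.56 ± 0.28 by limma (p = 0.0591, adjusted p = 0.824) and -0.49 by edgeR, and an exact two-sided permutation test over the 8 libraries gave p = 0.171 (Benjamini-Hochberg adjusted p = 0.889 over 16 member tests). Ttr had a log2 difference of -0.36 ± 0.23 and 7 of 14 listed meningeal and perivascular fibroblast markers were in the table at a summed 8.35 to 9.67 per 10000 counts with shXbp1, against 2.09 to 11.9 with shScrmbl (Mgp, the highest, averaged 311 and 284). The part of either in the Ptgds values was not tested.

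**Figure D1:**
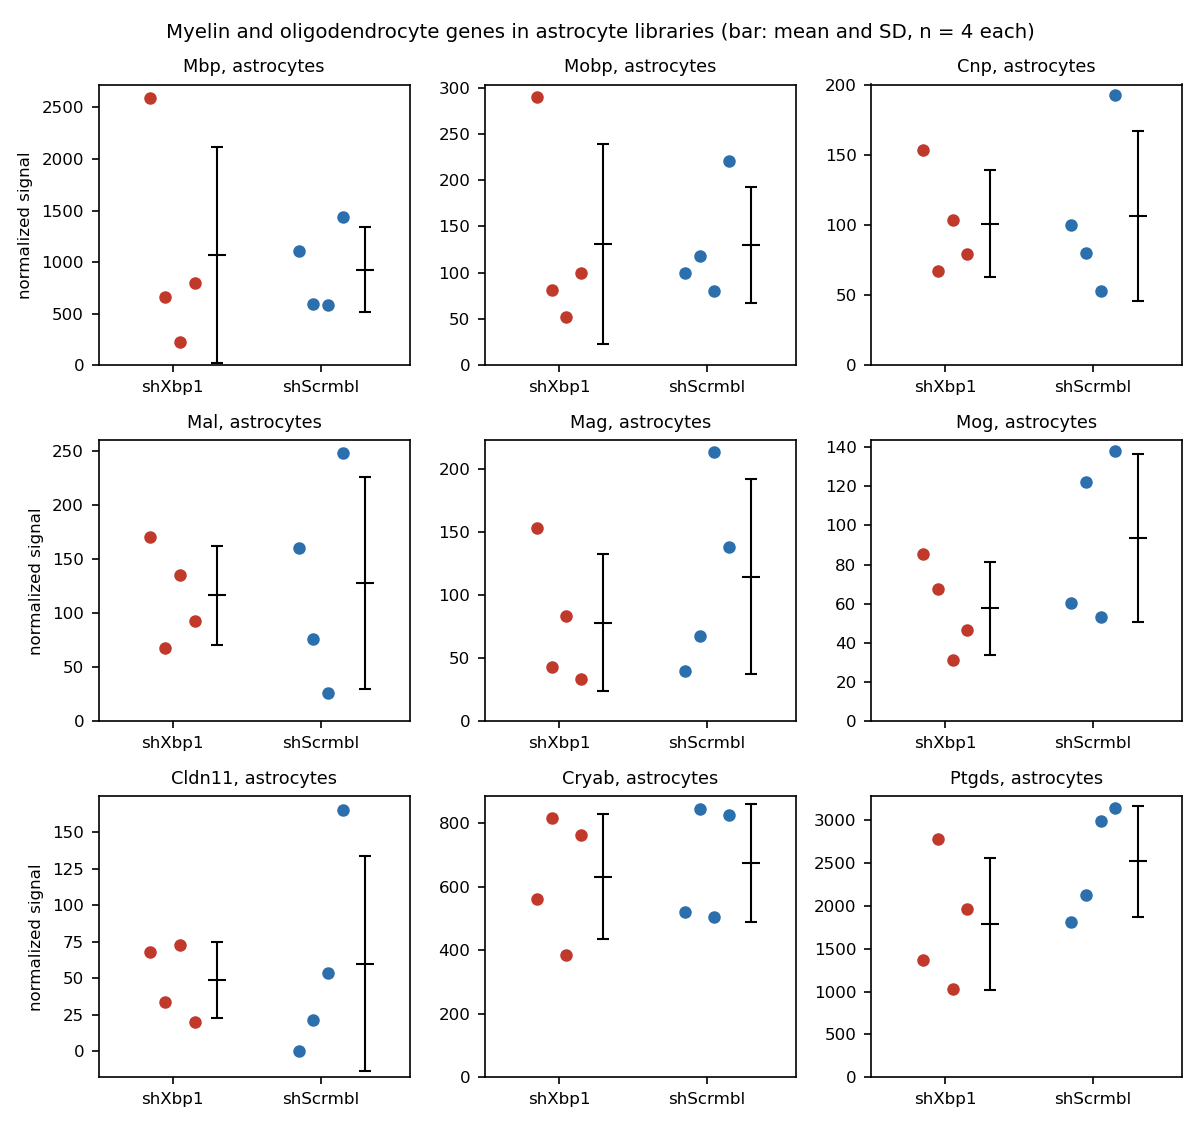
Normalized signal (y axis, linear, own scale per panel) of the 9 genes in each astrocyte library, shXbp1 left and shScrmbl right, with the mean and SD of 4 libraries beside the points. The groups overlap in every panel, and Ptgds has its 2 lowest libraries with shXbp1, at 1030 and 1364.

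Of the 9 members in astrocytes, 3 had a limma log2 difference above 0 and 6 below it, with a median of -0.19, where the median of all genes tested was 0.42 and 68.2% of them lay above 0. By edgeR 2 members lay above 0 and 7 below, with a median of -0.10, where the median of all genes was 0.05 and 53.2% lay above 0. None of the 9 had groups free of overlap, against 3.16% of all genes.

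Pairs of members varied together across the astrocyte libraries. Over the 8 libraries, with log2(signal + 10) and 45 pairs among the 9 members and Ttr, a relation chosen after the values were seen, 2 pairs passed an adjusted p of 0.05 by Pearson's r and 0 by Spearman's rho. Mbp and Mobp had r = 0.915 (exact permutation p = 0.0011, adjusted p = 0.024) and rho = 0.857 (exact permutation p = 0.011, adjusted p = 0.161), and r was 0.751 without the 2 libraries farthest from the median of Mbp. Cnp and Mal had r = 0.930 (exact permutation p = 0.00060, adjusted p = 0.024) and rho = 0.952 (exact permutation p = 0.0011, adjusted p = 0.0513), and r was 0.971 without 2 libraries. Both viruses were pooled, and the points of a library share its depth and its scaling.

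**Figure D2:**
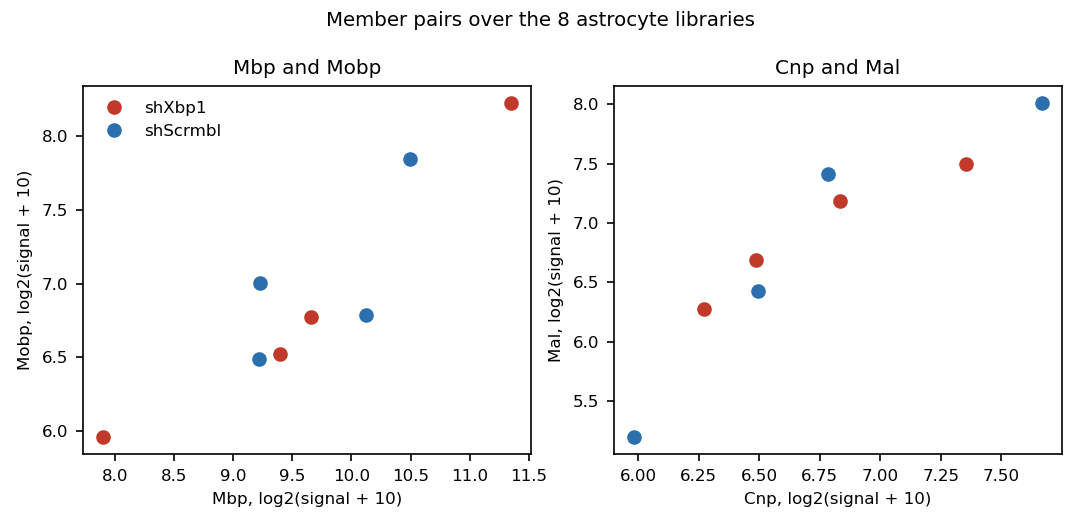
log2(signal + 10) of Mobp against Mbp (left) and of Mal against Cnp (right), 1 point per astrocyte library, coloured by virus. The points of both viruses lie along 1 rising band in each panel, with r = 0.915 on the left and r = 0.930 on the right.

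By the mean log2(signal + 10) of the 9 members, the genes most like them among 3136 genes above 0 in all 8 astrocyte libraries were Polr2k (r = 0.925), Cdc42se2 (r = 0.923), Dnajc11 (r = 0.922), Cic (r = 0.910) and Rc3h1 (r = 0.883). Ttr had r = -0.17 and ranked 1896. In the 7 microglia libraries, with 3 members and 1289 genes, they were Swt1 (r = 0.972), Ptk6 (r = 0.939), Prelp (r = 0.929), Ankfy1 (r = 0.874) and 1200014J11Rik (r = 0.858), and Ttr had r = 0.562. These are descriptions of the best of many genes.

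In microglia, Ptgds was higher in each of the 3 shXbp1 libraries than in any of the 4 shScrmbl libraries, and no member passed an adjusted test. Ptgds had a signal of 988, 552 and 718 with shXbp1, against 363, 151, 476 and 120 with shScrmbl, from 51 and 73 counts. By library, in the same order, these were 13, 8 and 30 counts, against 7, 12, 51 and 3. Means were 753 ± 220 (SD, n = 3) and 278 ± 171 (n = 4). Groups free of overlap were seen for 7.24% of the 3066 genes tested, and for 2.32% in that direction. The log2 difference was 1.62 ± 0.48 by limma (p = 0.0020, adjusted p = 0.653, rank 9 of 3066) and 1.34 by edgeR (p = 0.0011, adjusted p = 0.155), and the exact two-sided permutation test gave p = 0.0571, where 0.0286 is the smallest it can give (adjusted p = 0.889).

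The other members in microglia overlapped between the viruses. Mbp had 76.0, 276 and 239 in shXbp1 microglia, against 156, 177, 187 and 160 in shScrmbl microglia. The shXbp1 libraries lay on both sides of all 4 shScrmbl libraries, and the lowest of them rested on 1 count. The log2 difference was 0.02 ± 0.55 by limma and 0.27 by edgeR. Cryab had 152, 69.0 and 168 with shXbp1, against 104, 37.9, 84.0 and 160 with shScrmbl, and a log2 difference of 0.49 ± 0.82. By limma 0 of 3 members passed (0% of genes called), as by edgeR (0.391% called) and DESeq2 (0% called), and at an unadjusted p under 0.05 limma, edgeR and DESeq2 each had 1, Ptgds (5.41%, 5.48% and 2.02% of genes).

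The summed levels of marker lists of other cells overlapped between the viruses in microglia, while some single markers did not. Choroid plexus markers (6 of 15 in the table) summed to 367 to 530 per 10000 counts with shXbp1, against 175 to 695 with shScrmbl, where the shScrmbl library at 695 was the highest of all 7. Ttr makes up most of that sum, and the choroid plexus channel gene Kcnj13 (76.0 to 207 with shXbp1, against at most 75.7 with shScrmbl) and the mural marker Vtn (76.0 to 207, against 0 to 51.9) were higher without overlap, as Ptgds was (named after their values were seen). Neither passed an adjusted test, with edgeR log2 differences of 1.25 (adjusted p = 0.925) and 2.81 (adjusted p = 0.122). The lowest shXbp1 value of both, 76.0, was 1 count. Of the other choroid plexus markers in the table, Ttr and Folr1 (155, against 95.7) had higher means with shXbp1. Enpp2 (2119, against 2234), 1500015O10Rik (165, against 175) and Cab39l (49.3, against 76.5) had lower means. The monocyte and macrophage markers S100a4, S100a6 and Cybb were lower without overlap. Of the marker genes, edgeR called Lyz1, Lyz2, Cybb, Hp and Saa3 of the monocyte and macrophage list, all lower with shXbp1 (adjusted p from 0.0136 to 0.0383), and the red cell gene Hbb-bt, higher (adjusted p = 0.0164), while limma and DESeq2 called none of them. Ttr had 39062, 30495 and 40030 with shXbp1, against 58082, 21717, 23552 and 17440 with shScrmbl. Set against Ttr, Ptgds had 1.79 to 2.53 counts per 100 Ttr counts with shXbp1 and 0.626 to 2.02 with shScrmbl, so that the groups overlapped on this scale. Monocyte and macrophage markers (17 of 18; the highest, Lyz1, averaged 4612 and 13380) summed to 59.8 to 210 with shXbp1, against 121 to 464 with shScrmbl, and red cell markers (4 of 5; Hbb-bs averaged 672 and 498) to 8.59 to 25.5, against 2.87 to 23.2. Of the fibroblast markers 1 of 14 (Mgp) was in the table, at 0.215 to 1.50, against 0 to 1.39. Astrocyte markers (5 of 20; Cst3 highest) summed to 40.5 to 70.7, against 24.8 to 57.0, and endothelial and mural markers (3 of 15; Acta2 highest) to 5.58 to 11.3, against 2.69 to 10.1. Cst3 held most of the astrocyte sum, with 989 counts, where Aldoc, Slc1a3, Glul and Clu had 28, 58, 75 and 42. Over both viruses Cst3 averaged a signal of 3810 in microglia, against 887 in astrocyte libraries. Microglia markers summed to 257 to 348, against 298 to 390. The part of these in the Ptgds difference was not tested.

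A list of other genes of mature oligodendrocytes, which holds no member, is reported in part, so values are given for the genes named and no count or median over the list. The genes named did not pass by limma, robust edgeR or DESeq2 in any table, and Apod passed in astrocytes in the edgeR fit without robust estimation. In microglia Trf, the iron carrier transferrin, had 552 to 1532 with shXbp1, against 1090 to 1920 with shScrmbl, a limma log2 difference of -0.82 ± 0.40. Evi2a had 0 to 304, against 149 to 208 (11 and 39 counts), and Bin1, a membrane-bending protein, had 95.8 to 304, against 80.0 to 104 (11 and 21 counts). Apod averaged 96.7, against 83.1. Over both viruses Evi2a and Bin1 averaged 172 and 139 in microglia, against 43.7 and 50.5 in astrocyte libraries. Trf and Apod averaged 1211 and 88.9 in microglia, against 1688 and 1055 in astrocyte libraries. Which cells these values came from was not tested. None of the 14 listed precursor genes was in the microglia or monocyte table.

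In astrocytes the 4 highest genes reported from that list, Trf, Ermn, Apod and Car2, had lower means with shXbp1. Trf had 921 to 1704 with shXbp1, against 1198 to 3337 with shScrmbl (limma log2 difference -0.69 ± 0.33), and Ermn, a myelin cytoskeleton protein, had 79.7 to 146, against 20.1 to 240 (-0.09 ± 0.63). Apod, a lipid-binding apolipoprotein, had 239, 707, 364 and 418 with shXbp1, against 481, 928, 2929 and 2372 with shScrmbl, and 2 shScrmbl libraries stood far above the rest. Its log2 difference was -1.73 ± 0.58 by limma (adjusted p = 0.824) and -1.89 by edgeR (adjusted p = 0.634), and it passed in edgeR without robust estimation (-1.88, adjusted p = 0.0142, 0.0628% of genes called). Car2, a carbonic anhydrase, had 307, 529, 343 and 584, against 802, 611, 639 and 634, with no overlap (0.785% of genes in that direction). Its limma log2 difference was -0.65 ± 0.30 (adjusted p = 0.824). Which cells the Trf, Apod and Car2 values came from was not tested. Other genes of the list, named after their values were seen, lay the other way, with higher means with shXbp1, and passed no adjusted test. Qdpr averaged 86.1, against 42.9, Dbndd2 69.3, against 22.3, Tspan2 34.9, against 15.1, and Opalin 37.8, against 30.3, each with overlap. Of 14 precursor and lineage genes 3 were in the table, Bcas1 (limma log2 difference 0.32 ± 0.79), Vcan (0.99 ± 1.65) and Ptprz1 (2.07 ± 1.62), and none passed.

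In monocytes, with 2 libraries per virus, 3 of the 4 members had groups free of overlap, against 34.9% of the 3775 genes tested (9.85% higher and 25% lower with shXbp1). Mbp had 101 and 126 with shXbp1, against 224 and 209 with shScrmbl, and was lower in both shXbp1 libraries, from 8 and 39 counts. Its limma log2 difference was -0.93 ± 0.73. Ptgds had 303 and 293, against 168 and 191, and was higher in both, with a log2 difference of 0.73 ± 0.71. Cnp had 101 and 62.8, against 14.0 and 27.3, from 5 and 4 counts, and the ratio of its pooled shares was 3.23 with a 95% counting interval from 0.696 to 16.3.

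Cryab in monocytes had 0 and 62.8 with shXbp1, against 27.9 and 54.6 with shScrmbl, where the library with 0 counts could have held a signal of 152 (3 counts), and its limma log2 difference was -2.33 ± 3.31. No member passed by limma (2.68% of genes called), edgeR (0.0265% called) or DESeq2 (0% called), and at an unadjusted p under 0.05 the 3 tools had 0 of 4 members (4.77%, 4.66% and 0.556% of genes). The exact permutation test cannot go below p = 0.333 with 2 libraries against 2. Of the other oligodendrocyte genes, Car2 had 62.8 to 152, against 18.2 to 27.9, and Evi2a had 0 to 105, against 173 to 182, both without overlap. Car2 rested on 3 counts in each shXbp1 library, against 2 in each shScrmbl library, and Evi2a on 5 and 32 counts in all. Trf had 506 to 754, against 665 to 713, and Ermn had 0 to 105, against 14.0 to 82.0. Choroid plexus markers (3 of 15 in the table) summed to 44.0 to 102 per 10000 counts with shXbp1, against 36.7 to 47.5 with shScrmbl, and monocyte and macrophage markers (17 of 18) to 129 to 296, against 423 to 429. Within the choroid plexus list Ttr (7483 and 4815 with shXbp1, against 3563 and 4526 with shScrmbl) and Enpp2 (377 to 556, against 182 to 300.5) were higher without overlap, as Ptgds was. Cab39l, the remaining choroid plexus marker in the table, was lower without overlap. Red cell markers were higher without overlap in 4 of 4 genes (summed 6.53 to 10.9, against 2.15 to 3.82). Astrocyte markers (4 of 20) summed to 19.6 to 26.8, against 13.2 to 17.0, endothelial and mural markers (3 of 15) to 4.42 to 5.75, against 3.90 to 4.17, and microglia markers (17 of 18) to 133 to 162, against 170.0 to 203. Cst3 held most of the astrocyte sum (mean signal 2064, against 1322) and was higher without overlap. Aldoc (46.2, against 80.5) and Glul (41.9, against 110) were lower without overlap, and Clu overlapped. The part of these in the members' values was not tested.

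**Figure D3:**
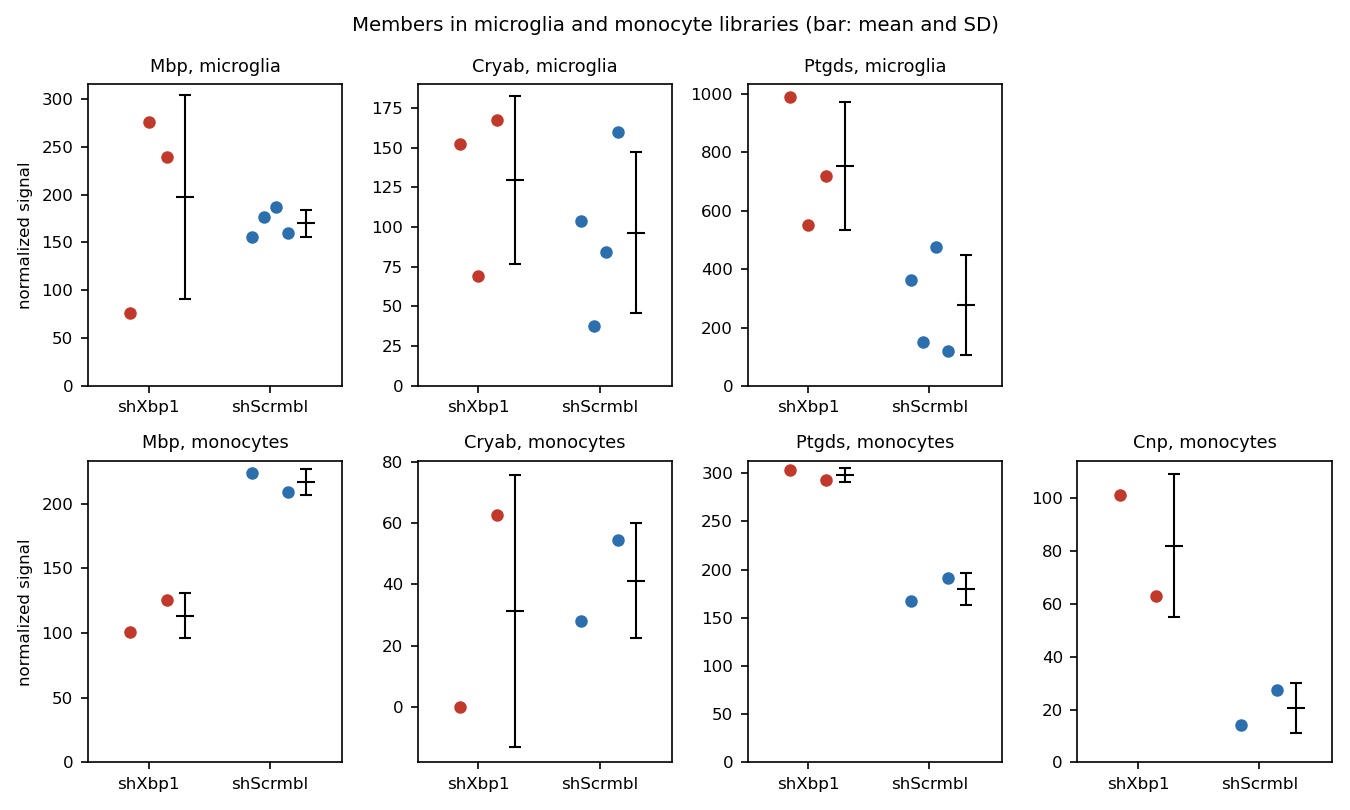
Normalized signal (y axis, linear, own scale per panel) of the members in each microglia library (top; 3 shXbp1 left, 4 shScrmbl right) and of the members in each monocyte library (bottom; 2 and 2), with mean and SD beside the points. Ptgds in microglia and Mbp, Ptgds and Cnp in monocytes show no overlap, and Mbp and Cryab in microglia do.

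**Figure D4:**
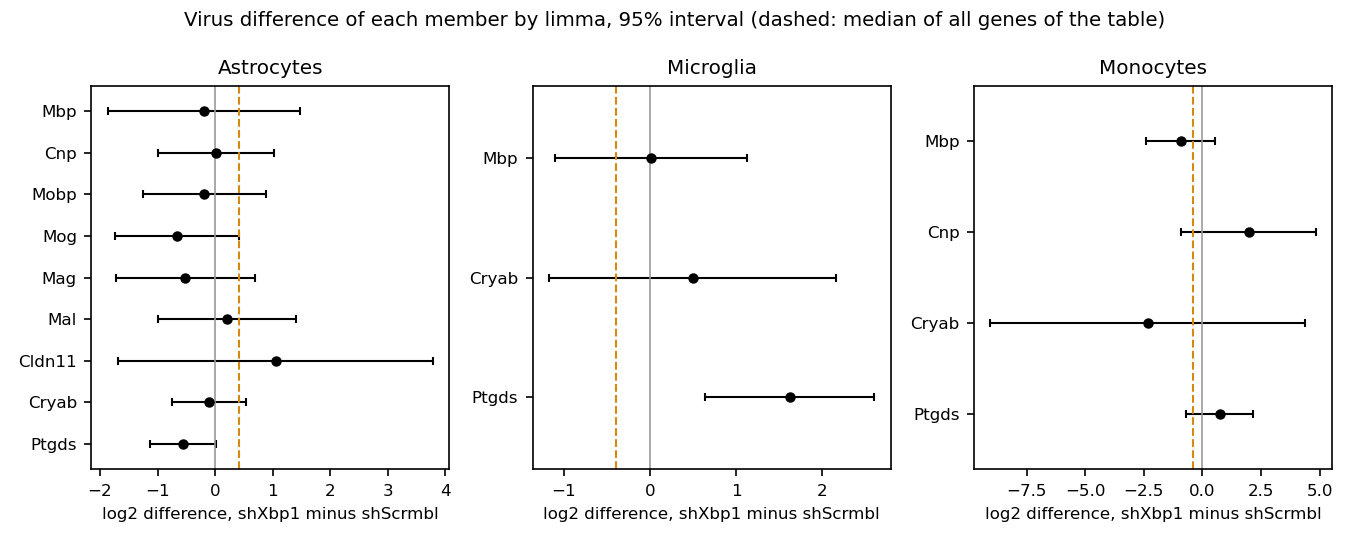
limma log2 difference of each member, shXbp1 minus shScrmbl, with its 95% interval, by cell type (x scales differ); the dashed line is the median of all genes of that table, 0.42, -0.39 and -0.42. Ptgds in microglia has the single interval that leaves out 0, from 0.64 to 2.60, before adjustment over genes.

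The virus difference of Ptgds had opposite signs in astrocytes (-0.56) and microglia (1.62). The difference between them, 2.18 on the log2 scale, gave p = 0.0118 in an exact permutation of virus labels within each cell type, and an adjusted p of 0.118 over 10 such tests, which were added after the values were seen. Monocytes minus astrocytes gave 1.29 for Ptgds (exact permutation p = 0.0286, adjusted p = 0.143). None of the 10 tests passed. The permutation treated the cell types as independent, which would not hold if their libraries came from the same mice.

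Levels were set side by side across cell types as counts per 10000 counts of a library, with no test, since each table was normalized and filtered alone. Mbp averaged 10.3 in astrocytes, 1.79 in microglia and 1.63 in monocytes, so microglia and monocytes held 17.3% and 15.8% of the astrocyte mean. Ptgds averaged 21.5, 5.13 and 2.45 (23.9% and 11.4% of the astrocyte mean), and Cryab 6.46, 1.14 and 0.333 (17.6% and 5.15%). Ttr averaged 2085, 341 and 53.4, which is 16.4% of the astrocyte mean in microglia and 2.56% in monocytes. Those means pool both viruses, and the shares differed between them. In microglia Ptgds held 47.5% of the astrocyte mean with shXbp1 and 10.5% with shScrmbl, Ttr 21.3% and 12.99%, Mbp 18.2% and 17.0%, and Cryab 22.3% and 14.2%, in the same order of viruses. In monocytes Mbp held 10.4% with shXbp1 and 22.3% with shScrmbl, Ptgds 17.7% and 6.89% and Cnp 85.1% and 18.6% (from 5 and 4 counts), each above Ttr at 3.58% and 1.72%. Cryab held 4.17% and 6.10%, from 3 and 8 counts, too few with shXbp1 to set it above Ttr.

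Set against Ttr within each library, the members gave counts per 100 Ttr counts. Mbp had 0.181 to 1.70 in shXbp1 and 0.226 to 0.723 in shScrmbl astrocytes, 0.195 to 0.905 and 0.268 to 0.917 in microglia, and 1.35 to 2.61 and 4.63 to 6.27 in monocytes. Ptgds had 0.814 to 1.13 and 0.669 to 1.59 in astrocytes and 4.05 to 6.09 and 4.23 to 4.71 in monocytes. Among the counts of Mbp, Cryab and Ptgds together, Ptgds held 61.5% to 81.3% in shXbp1 microglia and 27.3% to 63.8% in shScrmbl microglia. In monocytes it held 60.9% to 75.0% with shXbp1 and 40% to 42% with shScrmbl, without overlap and from as few as 8 counts in a library, and in astrocytes 30.2% to 65.2% and 52.6% to 73.2%.

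**Figure D5:**
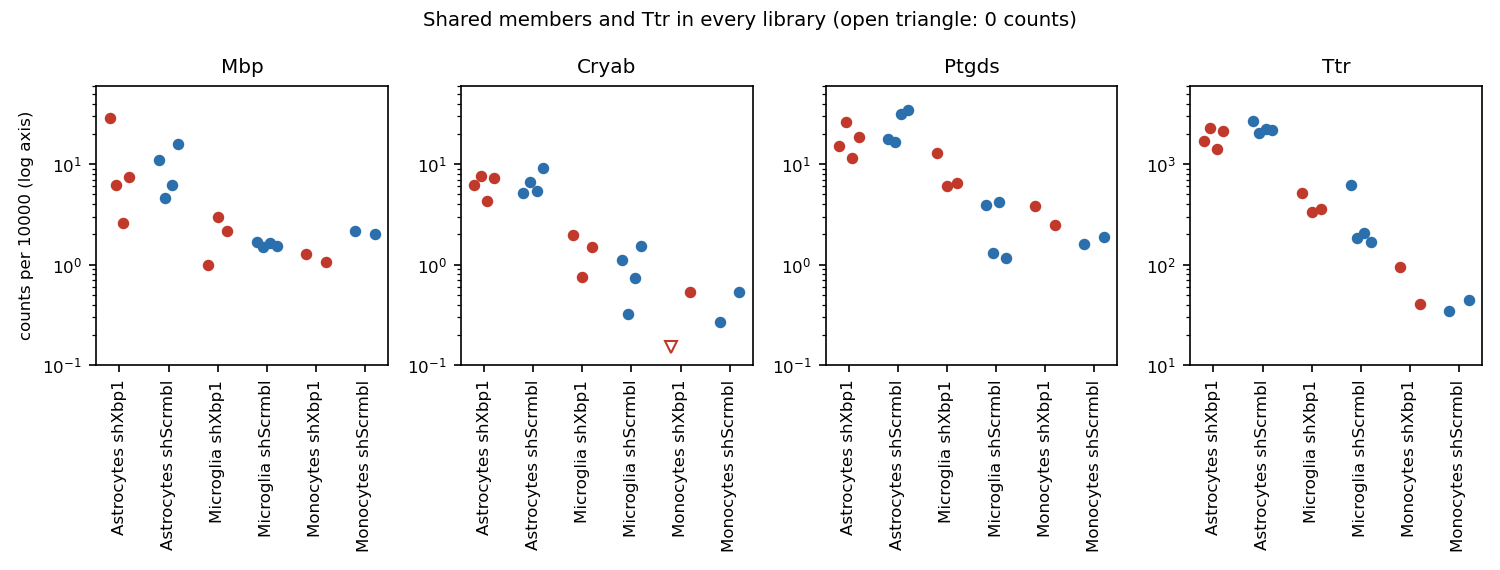
Counts per 10000 counts of the library (y axis, log scale; Ttr has its own range) for the 3 genes in every table and Ttr, in each library by cell type and virus, with an open triangle for 0 counts. Means go down from astrocytes to microglia to monocytes, and Mbp is nearly level between microglia (1.79) and monocytes (1.63).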

How the data were processed

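RNA of sorted cells was made into 3′ digital gene expression libraries, per the labels' protocols; BWA 0.7.10, limma 3.34.1 and build mm10 are named in the submitters' processing notes. The deposited values are a normalized signal. Each value was a whole number of counts (100% within 0.01 count) times a step per library, and equalled edgeR's TMM-scaled CPM of those counts. Whether they are reads or unique molecules is not given in the sources used here.

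Each table was fitted alone with limma 3.58.1 (trend, robust) on log2(signal + 1), keeping genes that reached a signal of 1 in a number of libraries equal to the smaller group, and p-values were Benjamini-Hochberg adjusted over 6366, 3066 and 3775 genes. edgeR 4.0.16 (quasi-likelihood, robust) and DESeq2 1.42.0 on the recovered counts were alternatives. A first edgeR fit without robust estimation and with library sizes over the whole table was replaced after its number of calls was seen, and is kept as an alternative. Exact permutation tests, intervals and figures used R 4.3.3, Python 3.11.15, scipy 1.17.1 and matplotlib 3.10.9; the fits were tested on simulated data. Named genes were every member, the 4 highest genes of the oligodendrocyte lists with any that passed a test, the highest gene of marker lists and the 5 most alike genes. One gene of the list of other mature oligodendrocyte genes is not reported here, so that list has no totals. Members and lists were chosen with earlier results of these data known. Coordinates are GENCODE M21 (GRCm38). Intervals of limma differences rest on the spread between libraries; the interval of a pooled ratio and the floors for 0 counts cover counting error only. The labels do not say whether the libraries of a group come from separate mice, so p-values measure only the spread between these libraries. The main fits did not pair samples by replicate number, and whether the numbers pair them could not be told.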

Additional observations from a re-analysis of the deposited data

How the results depend on the processing

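Depth limits every value: 1 count in the shallowest microglia library was worth a signal of 76.0, and differences of the low members could not be detected at this depth unless large. Called members stayed at 0 in each cell type under every alternative that kept all libraries. With 1 library left out they ran from 0 to 0 in astrocytes and microglia and from 0 to 1 in monocytes: Cryab reached -5.33 (adjusted p = 0.000854) by limma without shXbp1 replicate 2, where the remaining shXbp1 library had 0 counts and is assumed to vary like the others.

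Differences changed sign between alternatives, those of Cldn11 in astrocytes and Cryab in monocytes by large amounts, and the cause was not tested. In astrocytes Mbp had 0.19 by edgeR, 0.19 by edgeR without robust estimation and 0.12 by DESeq2, Cnp -0.077, -0.072 and -0.15, Mal -0.10, -0.095 and -0.20, and Cldn11 -0.23 by DESeq2, against 1.05 by limma. In monocytes Cryab had -2.33 by limma, 0.0042 by edgeR and 0.00042 without robust estimation. On log2(signal + 10) limma gave 0.32 for Cldn11 in astrocytes and -0.88 for Cryab in monocytes. Without the library with 0 counts limma gave -0.41 and 0.67, in the same order. Leaving out 1 library turned 19 of 109 values and kept 89. The ranges were -0.80 to 0.37 (Mbp), -0.26 to 0.35 (Cnp), -0.67 to 0.15 (Mobp), -0.40 to 0.66 (Mal), -0.41 to 2.05 (Cldn11) and -0.25 to 0.11 (Cryab) in astrocytes, -0.32 to 0.60 (Mbp) in microglia and -5.33 to 0.67 (Cryab) in monocytes. Ptgds kept its sign in each cell type: -0.80 to -0.33 in astrocytes, 1.30 to 1.96 in microglia (edgeR 1.06 to 1.93, adjusted p from 0.0912 to 0.9998) and 0.64 to 0.83 in monocytes.

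With the replicate number as a block, Mbp in microglia had -0.0092 and no other member turned. Deviations of same-numbered libraries correlated between -0.08 and 0.06. With 2 libraries per group the monocyte correlations could differ only in sign, and counting noise at this depth lowers such correlations. Whether the numbers pair the samples could therefore not be told. edgeR without robust estimation called 4, 13 and 1 genes in astrocytes, microglia and monocytes, against 1, 12 and 1, with 0 members in each; Apod was among the 4.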
